A study of Mus musculus with 6 samples.

Results

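The 56 genes described here, measured in 4T1_T cells, encode proteins of the cell cycle: 32 act at the entry into S phase and in the copying of DNA, and 24 act in mitosis. They were taken by symbol from a table of read counts of 23481 mouse genes, and each of the 56 symbols had a row. The G1/S set holds 10 cyclins, cyclin-dependent kinases (CDKs) and regulators of G1 and 22 replication factors. The mitotic set holds 10 kinases, cyclins and their partners, 6 proteins of the spindle checkpoint and the anaphase-promoting complex (APC/C), and 8 spindle motors, kinetochore and chromosome proteins.

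The line 4T1 was derived from a mouse mammary carcinoma, and the subline 4T1_T is named in the table's title without a description. Cells were infected with 1 of 3 short hairpin RNAs: shAsns-1 or shAsns-2, both aimed at the asparagine synthetase gene Asns, or shRenilla, a control against a luciferase that mouse cells do not have. Every group, the control included, thus carried a hairpin, and every group was cultured in DMEM with non-essential amino acids, a supplement that supplies asparagine. Libraries A and B were made for each hairpin, but library B of shAsns-1 held 0 reads at every gene and was left out, so 5 libraries remained. It is not stated if the libraries of a hairpin came from different cultures, if a line is 1 clone, or how long after infection RNA was taken.

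Gene reads numbered 10244753 to 15955168 per library. Levels are given as CPM, reads per 1000000 gene reads after TMM scaling, a scaling that evens out differences in library composition. A count of 3 reads, taken as the floor, corresponds to 0.188 to 0.291 CPM. Asns itself was at 109 CPM in the library labelled shAsns-1, at 46.5 and 44.7 CPM in shAsns-2, and at 58.7 and 56.3 CPM in shRenilla. The library labelled shAsns-1 was thus the highest in the gene its hairpin is directed at, against its label, and the log2 fold change over shRenilla was 0.92 (SE 0.101, adjusted p = 6.27e-05). In shAsns-2 Asns was 0.792-fold the shRenilla level (log2 -0.34, SE 0.0882), which did not pass the test (adjusted p = 0.216). Summed over 10 mammary epithelial markers, levels were 937 CPM in the library labelled shAsns-1, 1215 and 1200 CPM in shAsns-2, and 1162 and 1136 CPM in shRenilla. The 9 measured leukocyte markers summed to at most 2.41 CPM in any library, with Cd3g and Lyz2 at 0. Fibroblast markers summed to 39.1 CPM in the library labelled shAsns-1, 30.4 and 30.1 CPM in shAsns-2, and 28.9 and 28.8 CPM in shRenilla, mostly from Pdgfra. Endothelial markers summed to at most 5.97 CPM and neuronal markers to at most 0.578 CPM. The library labelled shAsns-1 also had reads at 17672 genes, against 15052 to 15392 in the other 4, and 40.9 CPM over 1122 olfactory receptor genes, against 12.1 and 8.08 CPM in shAsns-2 and 9.15 and 8.79 CPM in shRenilla.

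A cell commits to division in G1, when D-type cyclins with Cdk4 or Cdk6, and then E-type cyclins with Cdk2, inactivate the retinoblastoma protein and free E2F factors to transcribe the genes of DNA replication. The MCM helicase is loaded on origins by Cdc6 and Cdt1, is switched on with Cdc45 and the GINS complex, and unwinds DNA for polymerases that the sliding clamp Pcna holds in place. Later, cyclin A and cyclin B with Cdk1 start mitosis, the spindle is built by Aurora and Polo kinases and kinesin motors, and the spindle checkpoint holds back the APC/C with its activator Cdc20 until every chromosome is attached.

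The 2 sets are turned on at different times of the cycle, and their promoters differed in sequence, a feature that the choice of genes did not use. RefSeq promoter windows of 300 bases, from 250 before to 50 after the transcription start, were at hand for 44 of the 56 genes (GRCm38.p6). They were searched on both strands for TTCCCGC or TTGGCGC, letters bound by E2F factors, for TTTGAA or TTCGAA, the cell cycle homology region (CHR) bound by MuvB complexes, and for CCAAT, bound by NF-Y. An E2F-type match stood in 12 of 25 G1/S genes (48%) and in 3 of 19 mitotic genes (15.8%), beside 7.79% of 27025 genes with a window in the table. The CHR type showed the opposite order, with 4 of 25 G1/S genes (16%), 14 of 19 mitotic genes (73.7%) and 21.7% of all genes. CCAAT was found in 16 of 25 G1/S genes (64%) and 16 of 19 mitotic genes (84.2%), beside 41.1% of all genes. Each of the 14 mitotic genes and of the 4 G1/S genes with a CHR-type match also held CCAAT, a combination present in 9.65% of all genes. A reverse match to TTGGCGC ends in CCAA and can overlap CCAAT, as in Ccnb1. These shares are descriptions of the letters in the window, with no test.

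**Figure D1:**
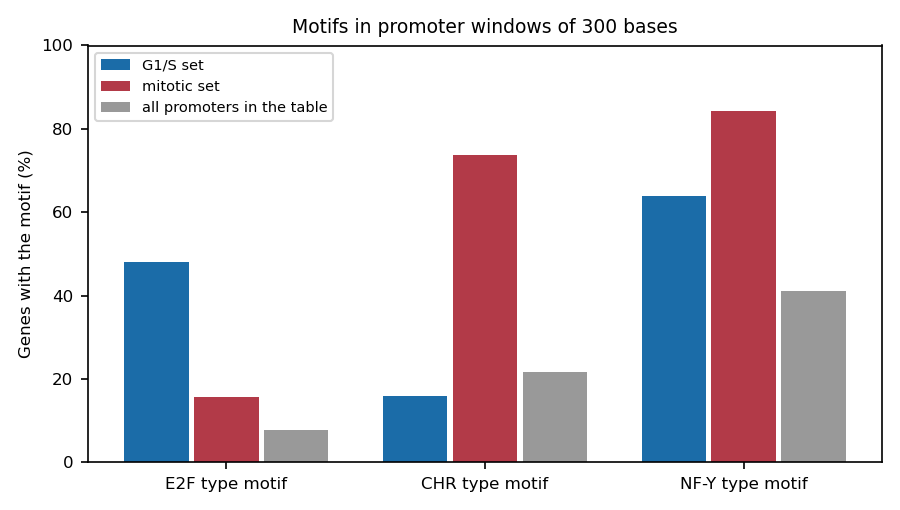
Percent of genes with a match to E2F-type, CHR-type or NF-Y-type letters in a promoter window of 300 bases, for 25 G1/S genes, 19 mitotic genes and 27025 genes of the table. E2F-type letters were most frequent in the G1/S set at 48%, and CHR-type letters in the mitotic set at 73.7%.

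The G1/S genes with an E2F-type match were Cdk2, Mcm3, Mcm5, Mcm6, Mcm7, Cdc6, Cdt1, Rrm1, Pola1, Pold1, Rfc3 and Rfc4. The mitotic genes with a CHR-type match were Ccnb2, Cdk1, Plk1, Aurka, Cdc20, Bub1, Bub1b, Ttk, Ube2c, Kif11, Kif23, Top2a, Cenpf and Mki67. A few windows are shown so that both arrangements can be compared, and they were picked after the matches were seen. The first is that of Pcna, which differed between libraries (chr2:132253131-132253430, minus strand), followed by the helicase subunits Mcm6 (chr1:128359656-128359955, minus strand) and Mcm5 (chr8:75109259-75109558, plus strand). The mitotic windows are those of cyclin B2, Ccnb2 (chr9:70421505-70421804, minus strand), Cdc20 (chr4:118437294-118437593, minus strand) and the spindle motor Kif11 (chr19:37376132-37376431, plus strand). Each runs 5′ to 3′ along the gene, and capitals mark every match to the 3 motif types, on either strand.
Pcna: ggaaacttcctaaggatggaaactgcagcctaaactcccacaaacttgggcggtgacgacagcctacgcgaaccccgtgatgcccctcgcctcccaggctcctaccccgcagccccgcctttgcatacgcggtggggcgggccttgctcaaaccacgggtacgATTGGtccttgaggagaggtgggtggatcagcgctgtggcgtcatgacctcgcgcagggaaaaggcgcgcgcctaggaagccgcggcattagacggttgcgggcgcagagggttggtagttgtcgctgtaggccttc
Mcm6: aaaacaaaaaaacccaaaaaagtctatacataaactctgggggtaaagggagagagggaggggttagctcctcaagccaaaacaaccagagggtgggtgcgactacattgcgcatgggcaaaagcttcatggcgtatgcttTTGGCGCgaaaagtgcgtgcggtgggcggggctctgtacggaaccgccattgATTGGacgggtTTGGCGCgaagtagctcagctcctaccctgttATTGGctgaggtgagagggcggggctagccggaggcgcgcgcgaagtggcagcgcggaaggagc
Mcm5: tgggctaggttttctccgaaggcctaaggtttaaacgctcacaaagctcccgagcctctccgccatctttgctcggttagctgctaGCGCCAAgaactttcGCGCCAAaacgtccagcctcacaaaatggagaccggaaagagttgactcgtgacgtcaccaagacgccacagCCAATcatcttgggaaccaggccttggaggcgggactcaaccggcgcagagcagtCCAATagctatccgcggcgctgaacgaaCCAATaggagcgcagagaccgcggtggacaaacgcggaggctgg
Ccnb2: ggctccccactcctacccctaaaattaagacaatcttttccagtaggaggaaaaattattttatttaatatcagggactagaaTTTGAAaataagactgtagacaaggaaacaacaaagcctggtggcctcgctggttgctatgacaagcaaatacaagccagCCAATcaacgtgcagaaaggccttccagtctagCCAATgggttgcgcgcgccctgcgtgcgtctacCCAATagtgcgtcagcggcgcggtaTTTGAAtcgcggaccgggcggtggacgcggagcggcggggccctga
Cdc20: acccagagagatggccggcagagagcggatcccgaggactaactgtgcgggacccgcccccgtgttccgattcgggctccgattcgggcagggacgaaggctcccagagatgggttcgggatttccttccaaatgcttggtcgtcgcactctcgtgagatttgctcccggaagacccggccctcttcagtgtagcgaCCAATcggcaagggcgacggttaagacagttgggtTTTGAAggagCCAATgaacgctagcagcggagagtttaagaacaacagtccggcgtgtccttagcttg
Kif11: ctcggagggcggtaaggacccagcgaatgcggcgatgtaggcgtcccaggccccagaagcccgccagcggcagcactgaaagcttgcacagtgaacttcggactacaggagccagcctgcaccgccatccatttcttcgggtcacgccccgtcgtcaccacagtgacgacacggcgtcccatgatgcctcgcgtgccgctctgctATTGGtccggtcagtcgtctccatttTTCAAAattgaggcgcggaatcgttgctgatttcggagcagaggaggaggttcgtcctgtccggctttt
Mcm6 and Mcm5 each carry a pair of E2F-type matches with CCAAT downstream of at least 1 of them. In Ccnb2, Cdc20 and Kif11 a CHR-type match lies close to the start with CCAAT upstream of it, and none of them has an E2F-type match. The Pcna window holds CCAAT on the reverse strand and neither of the other types.

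In the control cells every gene of both sets was detected, and the G1 cyclins spanned the whole range. Levels between genes are compared per length, as CPM per 1000 bases of exon (CPM per kb), in shRenilla A and B. Cyclin D1, Ccnd1, stood highest at 577 and 542 CPM per kb. It was followed by Mki67, the Ki-67 protein that coats mitotic chromosomes, at 266 and 250 CPM per kb, and by Top2a, the topoisomerase that untangles sister DNA, at 207 and 202 CPM per kb. The neighbours Ube2c, the ubiquitin-conjugating enzyme of the APC/C, at 133 and 135 CPM per kb, Rrm2, the small subunit of ribonucleotide reductase, at 126 and 126 CPM per kb, and cyclin A2, Ccna2, at 120 and 129 CPM per kb came next, and the order of Rrm2 and Ccna2 was not separated by their libraries. At the low end were the cyclins Ccnd3, at 2.09 and 2.13 CPM per kb, and Ccne1, at 1.95 and 1.66 CPM per kb.

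Related genes differed in level. Among the D cyclins Ccnd1 stood above Ccnd2, at 26.0 and 27.1 CPM per kb, and Ccnd2 above Ccnd3. Of the E cyclins, Ccne2, at 7.28 and 8.30 CPM per kb, stood above Ccne1. Cdk4, at 47.7 and 52.5 CPM per kb, stood above the other kinase of the D cyclins, Cdk6, at 14.1 and 9.77 CPM per kb. The 6 subunits of the MCM2-7 ring, which are present once each in the helicase, were not level in CPM per kb. The highest was above the lowest by 3.07-fold in the library labelled shAsns-1, by 3.04- and 3.45-fold in shAsns-2, and by 3.37- and 3.15-fold in shRenilla. These gaps depend on the lengths used, 6956 bases for Mcm2 and 3752 for Mcm3. Without length scaling, Mcm2 had 153 and 163 CPM and Mcm3 279 and 274 CPM in shRenilla.

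**Figure D2:**
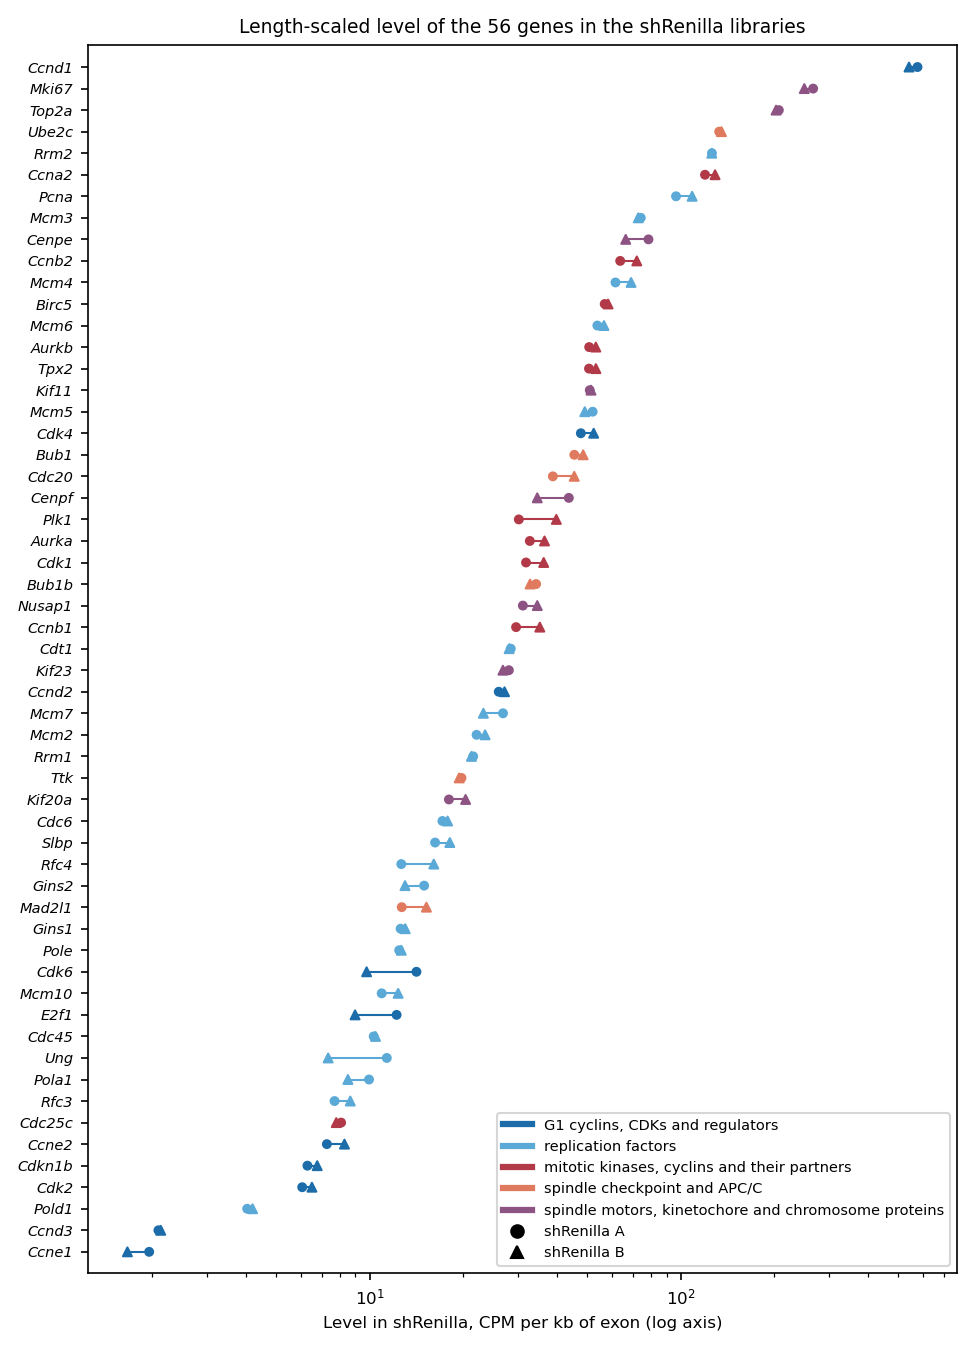
Level of each of the 56 genes in shRenilla A (circles) and shRenilla B (triangles), in CPM per kb of exon on a log axis, ordered by their mean and coloured by role. Ccnd1 stood highest at 577 and 542 CPM per kb, and Ccne1 lowest at 1.95 and 1.66 CPM per kb.

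All 56 genes passed the filter on low counts, so none was lost before testing; the lowest of them, Ccne1, rested on 64 to 94 reads per library. The shRenilla libraries were less alike in these genes than the shAsns-2 libraries were. Between shRenilla A and B, 7 of 56 genes differed by more than 1.2-fold, with the median gene at 1.07-fold. Between shAsns-2 A and B, 1 of 56 did, Gins2 at 1.23-fold, with the median gene at 1.05-fold. The largest gap in shRenilla was that of Ung, the uracil DNA glycosylase that removes uracil from newly made DNA, at 1.54-fold, followed by Cdk6 at 1.45-fold, the transcription factor E2f1 at 1.36-fold and Plk1, the Polo kinase, at 1.32-fold.

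As sums, the sets stayed within narrow limits. The G1/S genes added up to 6184 CPM in the library labelled shAsns-1, 6315 and 6517 CPM in shAsns-2, and 6351 and 6186 CPM in shRenilla. For the mitotic genes the sums were 8911 CPM in the library labelled shAsns-1, 9663 and 9018 CPM in shAsns-2, and 9306 and 9066 CPM in shRenilla. On average, the G1/S sum was 6416 ± 143 CPM in shAsns-2 and 6269 ± 117 CPM in shRenilla, and the mitotic sum 9340 ± 456 CPM in shAsns-2 and 9186 ± 169 CPM in shRenilla (SD, n = 2 each). The groups overlapped in both sums. The mitotic sum was 1.44 times the G1/S sum in the library labelled shAsns-1, 1.53 and 1.38 times in shAsns-2, and 1.47 times in both shRenilla libraries, so the 2 shAsns-2 libraries lay on either side of shRenilla. Such sums lean on the most abundant genes: Ccnd1 had 2575 CPM in the library labelled shAsns-1, 2772 and 2883 CPM in shAsns-2, and 2716 and 2551 CPM in shRenilla, and Mki67 had 2166 CPM in the library labelled shAsns-1, 2891 and 2448 CPM in shAsns-2, and 2681 and 2511 CPM in shRenilla. In RNA of whole cultures, fewer cells in a phase and less RNA per cell in that phase cannot be told apart.

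**Figure D3:**
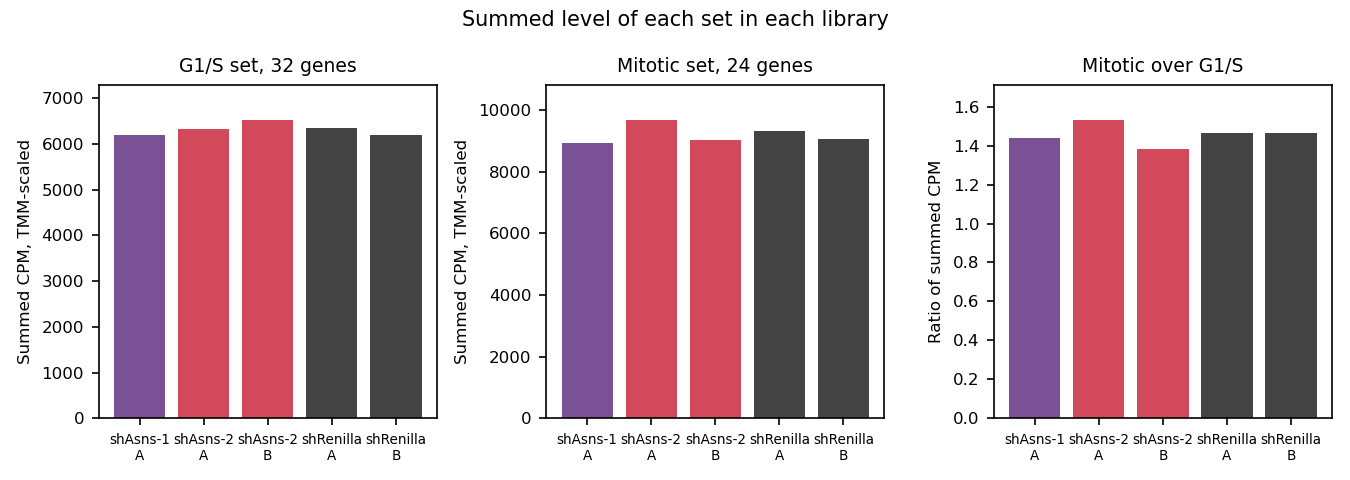
CPM summed over the 32 G1/S genes and the 24 mitotic genes, and the ratio of the mitotic to the G1/S sum, in each of the 5 libraries (1 bar each). The G1/S sums ran from 6184 to 6517 CPM and the mitotic sums from 8911 to 9663 CPM, with shAsns-2 and shRenilla overlapping in both.

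The first comparison asks whether the replication and mitosis genes changed with the hairpin shAsns-2. None of the 56 passed the test against shRenilla, in either direction, and their fold changes were small. Log2 fold changes ran from -0.19 to 0.45, with medians of 0.06 in the G1/S set and 0.03 in the mitotic set, beside 0.00 (-0.00140) over all genes tested; the mitotic minus the G1/S median was -0.03. The test was edgeR's quasi-likelihood test, with p-values adjusted over 12457 genes by the Benjamini-Hochberg method and a call at an adjusted p under 0.05. It called 0.0642% of all genes in this comparison, and limma-voom also called 0 of the 56 and DESeq2 0 of the 55 to which it gave an adjusted p, Ccne1 having none. At an unadjusted p under 0.05 there were 5 higher genes, Ccne1, E2f1, Gins2, Ung and Ube2c, and 0 lower ones, beside 9.63% of all genes (5.59% higher and 4.05% lower).

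By this fit, the intervals give a range for the change of each gene between these libraries. They are not adjusted over genes, so they are not the limit for a call. They rest on 2 libraries per group, whose spread may be technical, and do not bound a change between cultures. For 52 of the 56 genes the 95% interval lay within 0.5 log2 units of 0, which is 1.41-fold either way, beside 68.5% of all genes tested. The 4 others were Ccne1, E2f1, Gins2 and Ung, in the G1/S set. Cdk6 counts among the 52, though its shRenilla libraries alone differed 1.45-fold. For all 56 it lay within 1 log2 unit, or 2-fold. The libraries of the 2 groups did not overlap in 14 genes that were higher and 12 that were lower in shAsns-2, or 25% and 21.4% of the 56, beside 20.6% and 20.7% of all genes.

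Among the G1 regulators 9 of 10 had a log2 fold change above 0, with a median of 0.13, and none was called. In 8 of the 10 both shAsns-2 libraries were above both shRenilla libraries (80%, beside 20.6% of all genes), and in Ccnd2 both were below, while Cdk6 overlapped. Both were above both shRenilla libraries in 3 of the 22 replication factors (13.6%) and 3 of the 24 mitotic genes (12.5%); these counts have no test, and gaps such as that of Cdk4 were narrow. Ccne1, a cyclin that activates Cdk2, had 6.32 and 6.84 CPM in shAsns-2, against 5.20 and 4.43 CPM in shRenilla (log2 0.45, SE 0.190, adjusted p = 0.456). Both shAsns-2 libraries were above both shRenilla libraries, at a level near the low end of the genes tested here. The related Ccne2 had 31.8 and 29.2 CPM in shAsns-2, against 25.5 and 29.0 CPM in shRenilla (log2 0.16, SE 0.107). E2f1 had 39.6 and 41.8 CPM in shAsns-2, against 38.5 and 28.3 CPM in shRenilla, so the shRenilla A value lay beside the shAsns-2 values and shRenilla B alone was low (log2 0.28, SE 0.122, adjusted p = 0.467). Cdk4 was at 180 and 171 CPM in shAsns-2, against 155 and 171 CPM in shRenilla (log2 0.11, SE 0.0825), and Cdkn1b, the inhibitor p27 of cyclin E with Cdk2, at 31.8 and 33.7 CPM in shAsns-2, against 28.7 and 30.9 CPM in shRenilla (log2 0.14, SE 0.101). Neither differed beyond the spread between libraries by the test. The log2 difference of Ccnd1 was 0.10 (SE 0.0797), with both shAsns-2 libraries above both shRenilla libraries.

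The 22 replication factors had a median log2 fold change of -0.04 in shAsns-2, with 9 above 0 and 13 below, and none was called. Gins2, a subunit of the GINS complex of the replicative helicase, had 79.8 and 65.0 CPM in shAsns-2, against 61.3 and 53.2 CPM in shRenilla (log2 0.33, SE 0.105, adjusted p = 0.32). Ung had 64.3 and 63.8 CPM in shAsns-2, against 62.1 and 40.2 CPM in shRenilla (log2 0.32, SE 0.138, adjusted p = 0.467). Both shAsns-2 values lay just above shRenilla A, and without shRenilla A the log2 fold change was 0.67 (adjusted p = 0.0329), the call resting on shRenilla B. Pcna was at 231 and 247 CPM in shAsns-2, against 232 and 261 CPM in shRenilla (log2 -0.04, SE 0.0842), and Mcm2, a subunit of the helicase ring, at 156 and 143 CPM in shAsns-2, against 153 and 163 CPM in shRenilla (log2 -0.08, SE 0.0826). In both genes the groups overlapped. Rrm2 was at 307 and 324 CPM in shAsns-2, against 349 and 349 CPM in shRenilla, both shAsns-2 libraries being lower, without passing the test (log2 -0.14, SE 0.0776, adjusted p = 0.572). Slbp, which binds the stem-loop of replication-dependent histone mRNAs, had 91.9 and 103 CPM in shAsns-2, against 98.6 and 110 CPM in shRenilla (log2 -0.10, SE 0.0891); the 68 such histone genes in the table summed to 1775 and 1502 CPM in shAsns-2, against 1155 and 1462 CPM in shRenilla.

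In the mitotic set, where each interval lay within 1.41-fold, the fold changes of shAsns-2 were small. By role, medians were -0.02 for the kinases and cyclins, 0.03 for the checkpoint and APC/C genes and 0.05 for the motors and chromosome proteins. Ube2c had the smallest p of the 24, with 436 and 389 CPM in shAsns-2, against 346 and 351 CPM in shRenilla (log2 0.24, SE 0.0816, adjusted p = 0.346). Both shAsns-2 libraries were above both shRenilla libraries. Cyclin B1, Ccnb1, had 121 and 125 CPM in shAsns-2, against 125 and 149 CPM in shRenilla (log2 -0.15, SE 0.0910, adjusted p = 0.617). Its kinase Cdk1 had 159 and 154 CPM in shAsns-2, against 157 and 179 CPM in shRenilla (log2 -0.10, SE 0.0850). Among these 4 libraries both genes were highest in shRenilla B. Aurka, the Aurora kinase of centrosomes, had 80.9 and 79.5 CPM in shAsns-2, against 82.8 and 92.3 CPM in shRenilla (log2 -0.13, SE 0.0862), and Kif20a, a motor of cytokinesis, had 75.0 and 75.6 CPM in shAsns-2, against 78.0 and 88.2 CPM in shRenilla (log2 -0.14, SE 0.0879). The shAsns-2 libraries were below shRenilla in both genes by less than the test could separate. Plk1 had 77.4 and 77.7 CPM in shAsns-2, between the 66.3 and 87.5 CPM of shRenilla (log2 0.01, SE 0.108), and its value hung on the choice of control, at -0.17 without shRenilla A and 0.23 without shRenilla B. Log2 fold changes were 0.04 (SE 0.0789) for Ccna2, -0.04 (SE 0.0777) for Top2a and 0.04 (SE 0.0894) for Mki67.

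**Figure D4:**
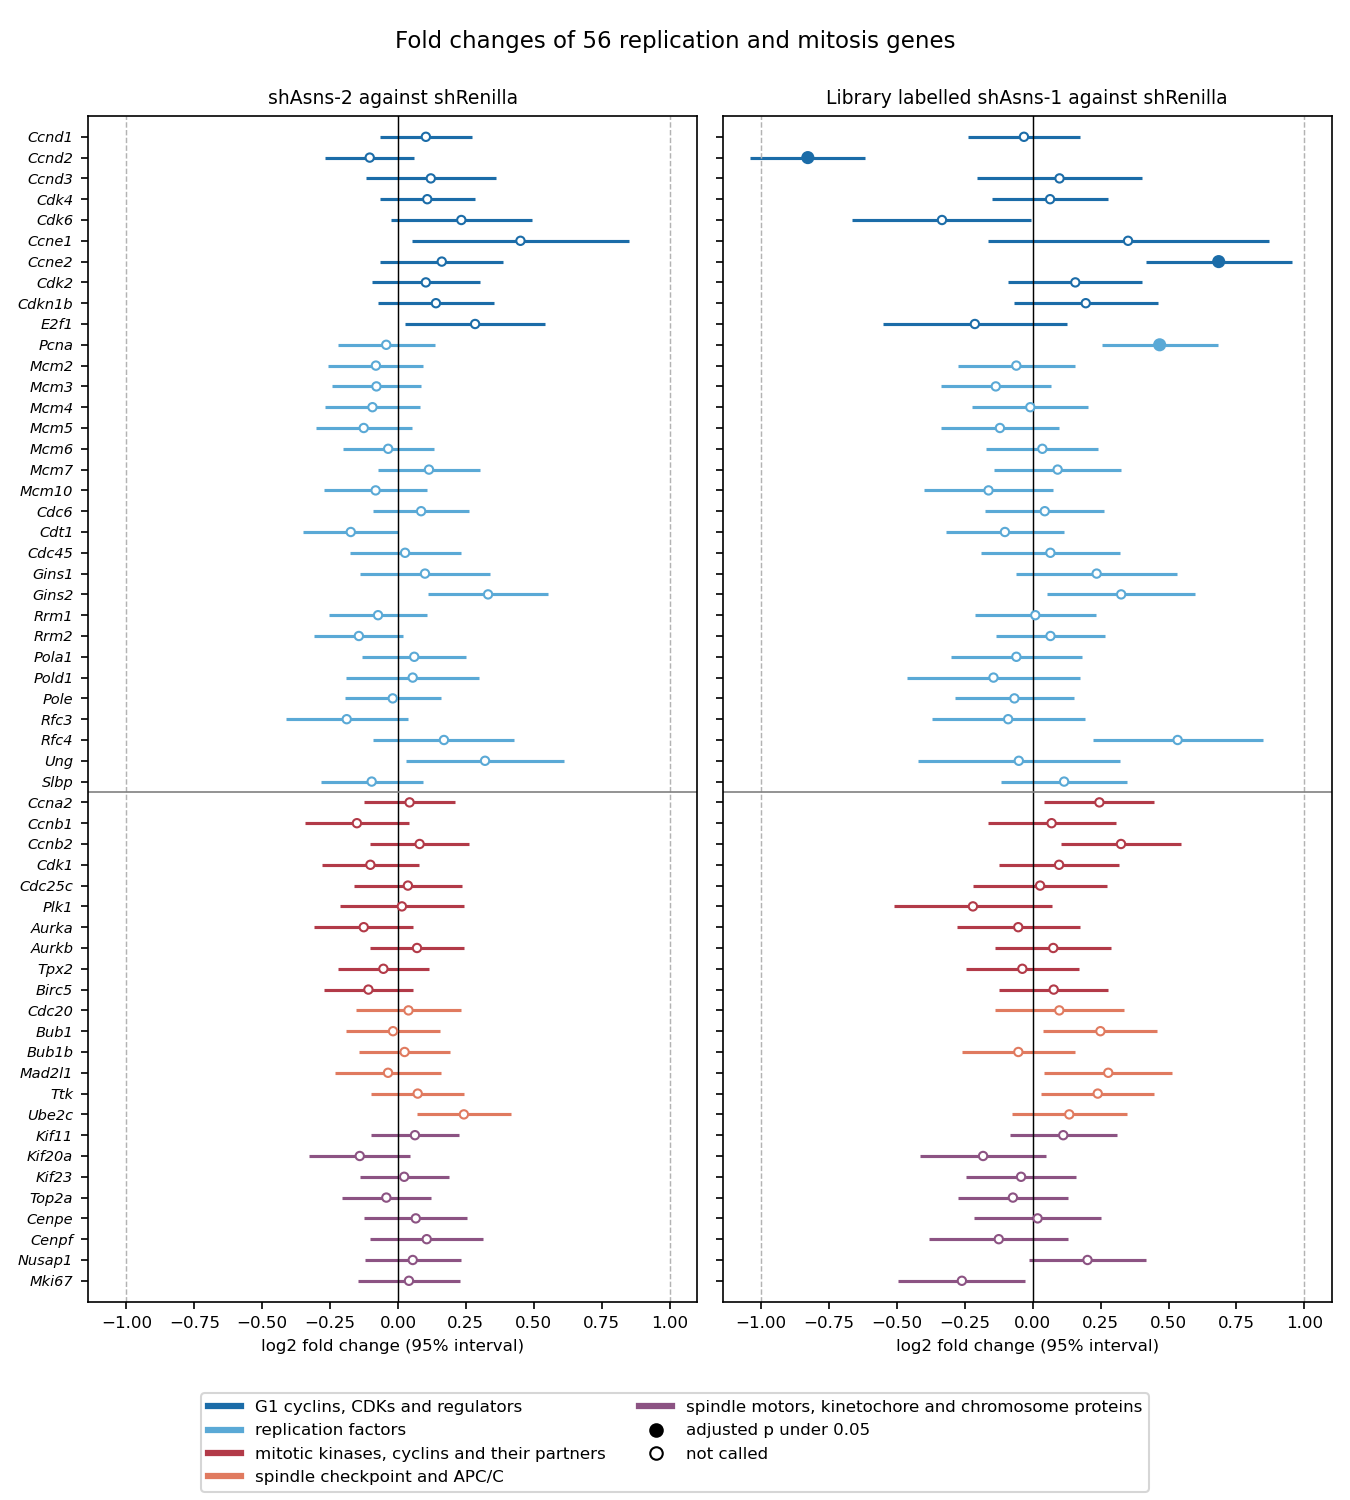
Log2 fold change with its 95% interval for each of the 56 genes, in shAsns-2 against shRenilla (left) and in the library labelled shAsns-1 against shRenilla (right), coloured by role, with filled points at an adjusted p under 0.05. No point is filled on the left, where all intervals lie within 1 log2 unit of 0, and Ccnd2, Ccne2 and Pcna are filled on the right.

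The second comparison sets the library labelled shAsns-1 against shRenilla. Few of the 56 genes were called, a share near that of all genes. All calls fell in the G1/S set, but they are too few to set it apart from the mitotic set. Cyclin D2 fell, and cyclin E2 and the sliding clamp Pcna rose. The test called 3 of 56 genes, 2 higher and 1 lower, beside 4.37% of all genes (2.31% higher and 2.06% lower). It called 0 of the 24 mitotic genes, of which 6 had an unadjusted p under 0.05, 5 higher and 1 lower; DESeq2 and limma-voom also called 0 of the mitotic genes and called the same 3 G1/S genes. Over both sets 9 genes were higher and 3 lower at that p, beside 19.6% of all genes (10% higher and 9.54% lower). Without shRenilla B the test called 7 of the 56, adding Rfc4, Cdk6, Ccnb2 and Mad2l1. Mitotic genes were called in further settings too: Mki67 without the filter on low counts, and Ccnb2 and Mad2l1 with a block by replicate letter in the fit. With that block and the GC trend removed they were Ccnb2 and Mki67. Median log2 fold changes were 0.02 in the G1/S set and 0.07 in the mitotic set, a difference of 0.05, beside -0.01 (-0.00901) over all genes. The 95% interval lay within 0.5 log2 units of 0 for 44 of the 56 genes, beside 48.7% of all genes. The single library lay above both shRenilla libraries in 27 of the 56 genes and below both in 17, or 48.2% and 30.4%, beside 37.4% and 38.5% of all genes. The lone library has no replicate of its own, and its spread was assumed to be that of the other groups.

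Ccnd2 (chromosome 6, 127125162 to 127152193, minus strand, GRCm38) encodes a D cyclin that activates Cdk4 and Cdk6. It was at 141 CPM in the library labelled shAsns-1, at 232 and 233 CPM in shAsns-2, and at 245 and 255 CPM in shRenilla. It fell to 0.563-fold of shRenilla (95% interval 0.486 to 0.652; log2 -0.83, SE 0.10, adjusted p = 0.00014), the other 4 libraries lying together above it. The call held in 12 of 12 alternative settings. The other D cyclins were not called: the difference of Ccnd1 on the log2 scale was -0.03 (SE 0.0978, adjusted p = 0.896), and Ccnd3 was at 19.8 CPM in the library labelled shAsns-1, at 20.1 and 20.2 CPM in shAsns-2, and at 18.4 and 18.7 CPM in shRenilla.

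Ccne2 (chromosome 4, 11191351 to 11204779, plus strand) encodes cyclin E2, a partner of Cdk2 at the entry into S phase. It was at 43.7 CPM in the library labelled shAsns-1, at 31.8 and 29.2 CPM in shAsns-2, and at 25.5 and 29.0 CPM in shRenilla. The library labelled shAsns-1 stood above the other 4, and the gene rose 1.61-fold over shRenilla (95% interval 1.33 to 1.94; log2 0.68, SE 0.127, adjusted p = 0.00593), a call that held in 12 of 12 settings. Its relative Ccne1 was at 6.16 CPM in the library labelled shAsns-1, against 5.20 and 4.43 CPM in shRenilla (log2 0.35, SE 0.245, adjusted p = 0.467).

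Pcna (chromosome 2, 132249162 to 132253314, minus strand) was at 341 CPM in the library labelled shAsns-1, at 231 and 247 CPM in shAsns-2, and at 232 and 261 CPM in shRenilla. Again the other 4 libraries lay together, and Pcna rose 1.38-fold over shRenilla (95% interval 1.19 to 1.60; log2 0.47, SE 0.101, adjusted p = 0.0143). It was called in 9 of 12 settings and lost its call without shAsns-2 A, shAsns-2 B or shRenilla A, the highest adjusted p being 0.0539. Pcna has pseudogene copies, and reads with several alignments were not set aside in the counting, so its level is uncertain. Rfc4, a subunit of the clamp loader that places Pcna on DNA, was at 31.8 CPM in the library labelled shAsns-1, at 25.3 and 24.2 CPM in shAsns-2, and at 19.4 and 24.6 CPM in shRenilla, just short of a call (log2 0.53, SE 0.148, adjusted p = 0.051).

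**Figure D5:**
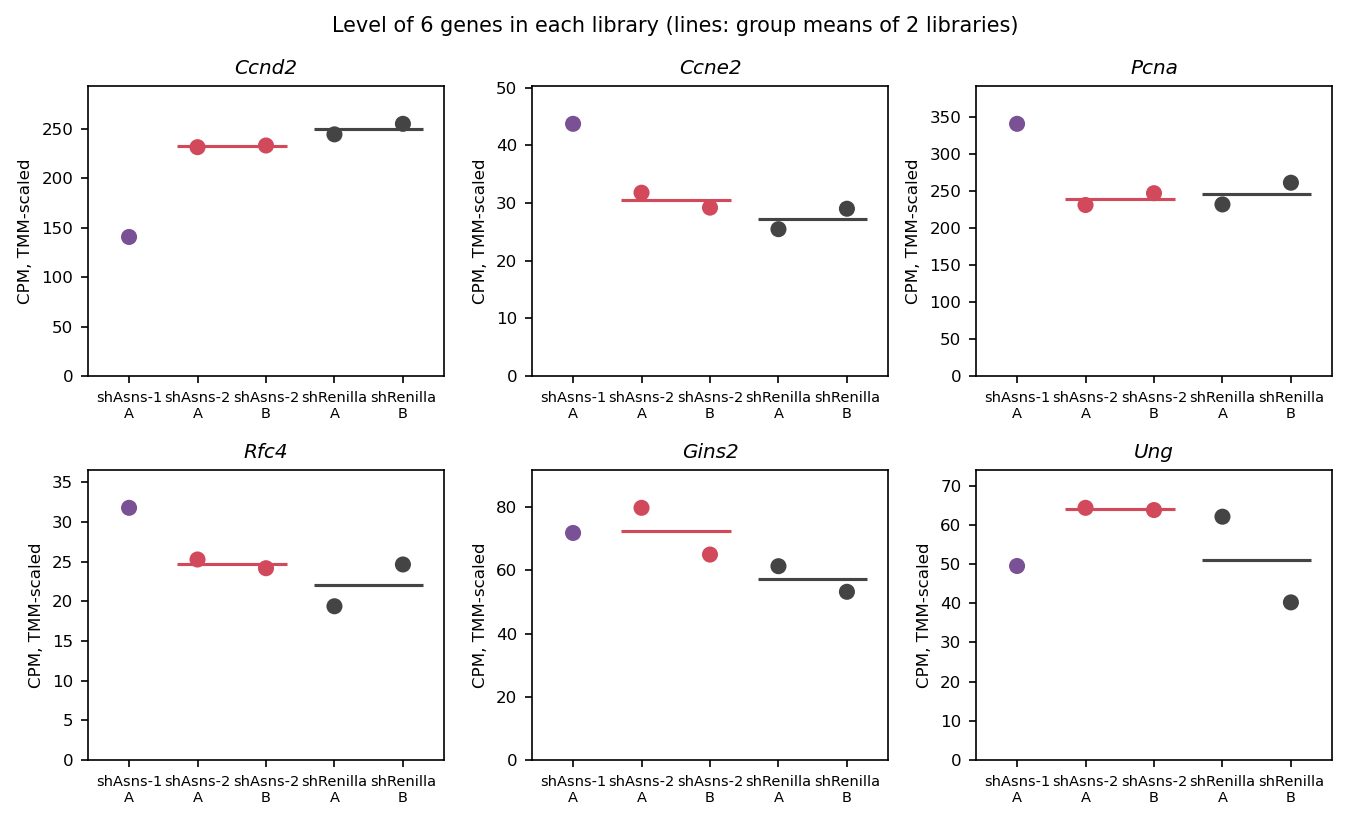
TMM-scaled CPM of Ccnd2, Ccne2, Pcna, Rfc4, Gins2 and Ung in each of the 5 libraries (points), with lines at the means of the 2 libraries of shAsns-2 and of shRenilla. Ccnd2 was lowest and Ccne2 and Pcna highest in the library labelled shAsns-1, while Ung was split between the shRenilla libraries at 62.1 and 40.2 CPM.

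Other members of the G1/S set stayed closer to shRenilla. Log2 fold changes were 0.06 (SE 0.102) for Cdk4, 0.20 (SE 0.126) for Cdkn1b, -0.06 (SE 0.102) for Mcm2, 0.07 (SE 0.0949) for Rrm2 and 0.12 (SE 0.109) for Slbp, none called. E2f1, at 28.9 CPM in the library labelled shAsns-1, against 38.5 and 28.3 CPM in shRenilla, matched the lower of the 2 controls (log2 -0.21, SE 0.161). Cdk6, at 133 CPM in the library labelled shAsns-1, against 198 and 137 CPM in shRenilla, likewise lay beside the lower control.

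Of the mitotic genes, cyclin B2, Ccnb2, had the smallest p, at 130 CPM in the library labelled shAsns-1, against 97.8 and 111 CPM in shRenilla (log2 0.33, SE 0.105, adjusted p = 0.0885). The checkpoint genes Bub1, a kinase at kinetochores, and Mad2l1, an inhibitor of Cdc20, were the highest in this library as well, at 243 CPM against 198 and 211 CPM in shRenilla for Bub1 (log2 0.25, SE 0.0993), and at 142 CPM against 106 and 128 CPM in shRenilla for Mad2l1 (log2 0.28, SE 0.112). Neither was called. Ccna2 had 602 CPM in the library labelled shAsns-1, against 489 and 526 CPM in shRenilla (log2 0.25, SE 0.0959, adjusted p = 0.161), whereas Mki67 was the lowest there (log2 -0.26, SE 0.111, adjusted p = 0.199). Log2 fold changes were 0.07 (SE 0.112) for Ccnb1, 0.10 (SE 0.104) for Cdk1, -0.22 (SE 0.137) for Plk1 and -0.07 (SE 0.0955) for Top2a, none called.

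Transcript GC content moved with the fold change in this library: across 8964 genes, which are not independent replicates, Spearman's rho of the log2 fold change with GC was -0.32 (-0.323), beside 0.07 (0.0734) for shAsns-2 against shRenilla. The median GC was 48.7% in the G1/S set and 46.4% in the mitotic set, beside 49.6% over all genes tested, and 36.3% in Ccne2. With the GC trend removed the 3 calls held, at log2 -0.84 for Ccnd2 (adjusted p = 0.000113), 0.54 for Ccne2 (adjusted p = 0.0278) and 0.43 for Pcna (adjusted p = 0.0254), and the mitotic median was 0.03. The higher Asns level, the larger number of genes detected and the olfactory receptor reads were seen in the same single library, and their part in these differences was not tested.

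The hairpins were also set against each other, with shAsns-2 over the single library labelled shAsns-1, which shares its shAsns libraries with the comparisons above and adds a test of the difference. The same 3 genes were called, beside 2.14% of all genes (1.33% higher and 0.811% lower in shAsns-2). Ccnd2 was higher in shAsns-2 (log2 0.72, SE 0.10, adjusted p = 0.000793), and Ccne2 (log2 -0.52, SE 0.129, adjusted p = 0.044) and Pcna (log2 -0.51, SE 0.102, adjusted p = 0.0137) were lower. For Ccne2 the call was lost with DESeq2 (adjusted p = 0.155) and limma-voom (adjusted p = 0.0515), with the GC trend removed and without shAsns-2 A or B, and its adjusted p ran from 0.00638 to 0.242 over 12 settings. The Pcna call was lost without shAsns-2 A or B as well, while without shRenilla B the count was 7 of 56. Cdk6, with 207 and 186 CPM in shAsns-2 against 133 CPM in the library labelled shAsns-1, came next (log2 0.57, SE 0.157, adjusted p = 0.0696). Over the 56 genes, 4 were higher and 7 lower at an unadjusted p under 0.05, beside 8.87% and 7.89% of all genes. Both shAsns-2 libraries lay above the other library in 20 of the 56 genes and below it in 24, or 35.7% and 42.9%, beside 39.8% and 39.2% of all genes. No mitotic gene was called: 4 had an unadjusted p under 0.05, and DESeq2 and limma-voom called 0 as well. Other settings did call mitotic genes: Mki67 without the filter on low counts, and Mad2l1 without shRenilla B. With a block by replicate letter in the fit they were Cenpf, Mad2l1 and Mki67, and with the GC trend removed as well, Cenpf and Mki67. Since shAsns-1 is 1 library, the hairpin and the library cannot be told apart.

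A further 255 genes of the same processes, in 6 lists, of which 250 were tested, gave the surroundings of the 56. In shAsns-2 against shRenilla edgeR called 0 of 250 (7 higher and 8 lower at an unadjusted p under 0.05, or 2.8% and 3.2%, beside 5.59% and 4.05% of all genes), with a median log2 fold change of -0.01 (-0.00507). Cdkn1a, the CDK inhibitor p21, had 37.9 and 29.5 CPM in shAsns-2, against 23 and 27.8 CPM in shRenilla (log2 0.40, SE 0.128, adjusted p = 0.324). In the library labelled shAsns-1 against shRenilla 11 of 250 rose and 0 fell, or 4.4% and 0%, beside 2.31% and 2.06% of all genes. In either direction 4.37% of all genes were called, so the number of calls was at the background and only their direction was one-sided. The replication genes among them were Rpa3, a subunit of the protein that coats single-stranded DNA, at 47.3 CPM in the library labelled shAsns-1, against 25.3 and 29.1 CPM in shRenilla (log2 0.80, SE 0.127, adjusted p = 0.00154), Tipin of the fork protection complex (log2 0.45), the Pcna partner 2810417H13Rik (log2 0.38) and the checkpoint kinase Chek1 (log2 0.39). In the list of other cyclins, CDK inhibitors and RB/E2F regulators, Rb1, the retinoblastoma gene, was at 59.0 CPM in the library labelled shAsns-1, against 34.6 and 38.5 CPM in shRenilla (log2 0.69, SE 0.143, adjusted p = 0.0109). Ccng1 (log2 0.41) and Tfdp2 (log2 0.45), a partner of E2F factors, rose too. The lists of spindle and kinetochore genes and of condensin and cohesin genes gave Spc25 (log2 0.61) and Ska3 (log2 0.39) of the kinetochore, Esco2 (log2 0.57), which acetylates cohesin, and the condensin subunit Smc4 (log2 0.39). Some calls in these lists were lost in alternative settings, which are not given gene by gene here. Not all of them are thus as firm as the call of Ccnd2. The median GC of the 250 was 46.6%, and the median log2 fold change was 0.06, beside 0.07 in the mitotic set and 0.02 in the G1/S set. Between the hairpins 3 of the 250 were lower in shAsns-2 and 0 higher, or 1.2% and 0%, beside 0.811% and 1.33% of all genes, a share near the background. The 3 were Rpa3, Tipin and Ska3.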

How the data were processed

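The members and the lists of further genes were chosen with earlier results of these data known. Integer read counts per gene were deposited by the authors in 1 table; per the submitters' processing notes, the aligner was Bowtie2 (mm10) and the counter HTSeq, and per the labels RNA was extracted with Trizol and libraries were made with the Nugen Ovation kit. Their versions, the annotation and the use of strand are not given, so genes with an antisense or overlapping partner are uncertain. The tallies for several alignments and low alignment quality were 0; reads in no feature made up 36.1 to 38.3% and unaligned reads 17.9 to 23.2% of each library, and both stayed out of library sizes and tests.

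Genes were kept by filterByExpr by group (12457 genes), scaled with TMM factors and fitted with edgeR 4.0.16 (R 4.3.3, limma 3.58.1) in 1 quasi-likelihood fit over 5 libraries with 2 residual degrees of freedom (common dispersion 0.00388, biological coefficient of variation 6.23%, 14.7 prior degrees of freedom). DESeq2 1.42.0, limma-voom, other scalings, no filter, removal of a GC trend, a block by letter and leaving out each library were alternatives. The main fit was tested on simulated data for shAsns-2 against shRenilla only. The alternatives and the comparisons with the single library labelled shAsns-1 were not simulated. Fold changes are log2 values, intervals are 95%, and p-values measure the spread between these libraries, which may be technical. Exon lengths and GC came from GENCODE M21 (GRCm38), whose annotation may differ from the authors', and promoters from RefSeq (GRCm38.p6). Libraries of different hairpins share only a letter and were not paired. Values in every library were given for called members, the 4 smallest p in each set and comparison, and 16 members always named; of the lists, for called genes and the smallest p. For 7 windows of 46 the last bases did not lie in a transcript of the gene in GENCODE M21; none matched in reverse. A gene of the further lists is not reported here and was left out of their counts.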

Additional observations from a re-analysis of the deposited data

Results flagged for a closer look

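Of the genes described here, 3 of 56 members and 3 of 250 further genes differed between the hairpins, by the contrast of shAsns-2 with the library labelled shAsns-1 in the fit over all genes (edgeR's quasi-likelihood test, Benjamini-Hochberg adjustment), beside 2.14% of all genes tested. The 3 of 250 are 1.2%, near the background. Of the 56 members 1.79% were higher and 3.57% lower in shAsns-2, beside 1.33% and 0.811% of all genes. That share is above the background but rests on few genes. Ccnd2 was higher in shAsns-2, with a log2 fold change of 0.72 (adjusted p = 0.000793). Its values in shAsns-2 were 232 and 233 CPM, beside 141 CPM in the library labelled shAsns-1. Lower in shAsns-2 were Ccne2 (log2 -0.52, adjusted p = 0.044) and Pcna (log2 -0.51, adjusted p = 0.0137). Ccne2 was called in 6 of 12 alternative settings, Pcna in 10 of 12 and Ccnd2 in 12 of 12. Of the further genes, Rpa3 (log2 -0.78, adjusted p = 0.00392), Tipin (log2 -0.41, adjusted p = 0.0316) and Ska3 (log2 -0.43, adjusted p = 0.0438) were lower in shAsns-2 too. Rpa3 was at 26.3 and 28.7 CPM in shAsns-2, beside 47.3 CPM in the library labelled shAsns-1. In how many alternative settings the calls of these further genes held is not given here. The 1 library with the label shAsns-1 is on the other side of each difference, so the hairpin and the library cannot be told apart.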

How the results depend on the processing

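With shAsns-2 against shRenilla, the count of 0 called genes became 2 with a block by replicate letter (Gins2 and Ung, with or without the GC trend removed) and ran from 0 to 1 over left-out libraries (Ung, without shRenilla A). The labels do not say whether a letter pairs libraries of different hairpins. Deviations of same-letter libraries of shAsns-2 and shRenilla correlated at 0.0268 over 8952 genes, which are not independent replicates. With only libraries A and B in each group, this value cannot decide whether the letters pair the libraries. In the library labelled shAsns-1 over shRenilla, the 3 calls became 6 without the filter on low counts, 7 with the block, with or without the GC trend removed, and 2 to 7 over left-out libraries (7 without shRenilla B, 2 without shAsns-2 A, shAsns-2 B or shRenilla A). Between the hairpins the 3 became 6 without the filter, 9 with the block, 6 with block and GC trend removed, and 1 to 7 over left-out libraries (Ccnd2 alone without either shAsns-2 library, 7 without shRenilla B). In shAsns-2 against shRenilla the G1/S median was 0.0291 with library totals only and 0.0217 to 0.0763 over left-out libraries, and the mitotic median -0.0144 to 0.0305 and the mitotic minus the G1/S median -0.0590 to -0.0199 over left-out libraries. In the library labelled shAsns-1 the G1/S median was 0.0632 with the block and 0.0227 to 0.0329 over left-out libraries; the mitotic median was 0.0279 with the GC trend removed and 0.0481 to 0.104 over left-out libraries, and their difference 0.0118 with the GC trend removed and 0.0230 to 0.0709 over left-out libraries. Between the hairpins the G1/S median was -0.0407 with library totals only, -0.0342 with the GC trend removed, -0.0519 with block and GC trend removed, and -0.0309 to 0.0127 over left-out libraries; the mitotic median was -0.0737 with library totals only and -0.0569 to -0.0324 over left-out libraries, and the difference of the medians 0.00489 with the GC trend removed and -0.0622 to -0.0259 over left-out libraries. Signs of uncalled genes near 0 turned. In shAsns-2, Plk1 was -0.0148 with library totals only, -0.00166 with the GC trend removed and -0.173 to 0.227 over left-out libraries, Pcna -0.125 to 0.0454, Ccna2 -0.00919 to 0.0972 and Mki67 -0.0847 to 0.156. In the library labelled shAsns-1, Ccnd1 ran from -0.0764 to 0.0148, Cdk4 from -0.00217 to 0.134, E2f1 from -0.414 to 0.0304 and Ccnb1 from -0.0514 to 0.202, each turning without shRenilla A. The cause was not tested. Over all named genes and alternative settings, 700 values kept their direction and either kept their side of the threshold or had no adjusted p. Of the rest, 50 lost a call, 27 gained one and 12 turned sign. Most of the lost calls were those of the further genes in the lists. At 10244753 to 15955168 gene reads, Ccne1, with 64 to 94 reads per library, had the widest interval.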
